A study of Mus musculus with 32 samples.

Results

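The 6 genes described here carry the signals by which stromal and osteoblast lineage cells act on osteoclast precursors: *Tnfsf11* (RANKL), *Tnfrsf11b* (osteoprotegerin, OPG), *Tnfrsf11a* (RANK), *Csf1*, *Csf1r* and *Il34*. They were taken by symbol from the gene list of the count matrices, in which all 6 are present among 31053 genes. The cells were bone marrow-derived stromal cells of Diversity Outbred (DO) mice of both sexes, an outbred mouse population, grown in osteogenic medium (BMSC-OBs). Cells of 4 or 5 mice were pooled before capture, so a pool is a mixture of several animals, and the 16 pools analysed here were each sequenced in 2 runs. The labels give no treatment, so the comparisons were between cell types within pools and between pools. Per the study, the differentiation medium held ascorbic acid, β-glycerophosphate and dexamethasone, a glucocorticoid. All pools shared it, so no level given here is that of cells without these additions.

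RANKL is a membrane-bound or shed cytokine that binds RANK on macrophage lineage cells and drives their fusion into osteoclasts, the cells that resorb bone. OPG is a secreted decoy receptor that captures RANKL before it reaches RANK. CSF1 and IL-34 are alternative ligands of CSF1R, a receptor tyrosine kinase on which macrophages and osteoclast precursors depend for survival.

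The 4 secreted or shed signals and the 2 receptors lie on different chromosomes. In GRCm38 (GENCODE M21), *Tnfsf11* (ENSMUSG00000022015) is on chromosome 14 from 78277445 to 78308043, minus strand, and *Tnfrsf11b* (ENSMUSG00000063727) is on chromosome 15 from 54250619 to 54278484, minus strand. *Csf1* (ENSMUSG00000014599) is on chromosome 3 from 107741048 to 107760469, minus strand, and *Il34* (ENSMUSG00000031750) is on chromosome 8 from 110741829 to 110805924, minus strand. The RANK gene *Tnfrsf11a* (ENSMUSG00000026321) is on chromosome 1 from 105780718 to 105847981, plus strand. The annotation places the antisense genes Gm15894 and Gm15895 over *Il34*, and *Hmgxb3* and the microRNA gene Mir6983 over *Csf1r*, whereas the other 4 loci overlap no annotated gene.

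*Tnfsf11*, *Csf1* and *Il34* had their highest mesenchymal level in the same cell class. For *Tnfsf11* and *Csf1* the RefSeq promoter windows (GRCm38.p6, 250 bases before to 50 after the annotated start, minus strand in both) are shown for that reason, and that of *Il34* was not analysed here. Capitals mark matches, on either strand, to the TATA box letters TATAAA, the RUNX motif core TGTGGT, the C/EBP motif TTGCNNAA or the EBF motif CCCNNGGG. The C/EBP and EBF letters were chosen after *Cebpa* and *Ebf1* had been seen among the genes most like *Tnfsf11*.
Tnfsf11, chr14:78307994-78308293: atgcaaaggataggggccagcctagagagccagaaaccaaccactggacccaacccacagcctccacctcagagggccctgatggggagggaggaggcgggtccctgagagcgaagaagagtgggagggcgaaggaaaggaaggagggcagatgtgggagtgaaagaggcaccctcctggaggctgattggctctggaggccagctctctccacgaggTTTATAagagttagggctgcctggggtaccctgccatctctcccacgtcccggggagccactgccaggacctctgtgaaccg
Csf1, chr3:107760420-107760719: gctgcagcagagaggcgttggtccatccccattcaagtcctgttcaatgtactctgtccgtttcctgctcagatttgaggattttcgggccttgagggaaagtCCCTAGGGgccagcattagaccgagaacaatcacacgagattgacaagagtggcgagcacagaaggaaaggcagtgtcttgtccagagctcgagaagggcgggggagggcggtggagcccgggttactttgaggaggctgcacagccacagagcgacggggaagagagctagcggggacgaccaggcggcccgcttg
The *Tnfsf11* window held the TATA letters on the opposite strand at positions -32 to -27 from the start and none of the other letters. The *Csf1* window held only CCCTAGGG, a match to the EBF letters at positions -147 to -140. Among 32851 promoter windows of this length, 13.6% held the TATA letters, 16.8% the RUNX letters, 10.8% the C/EBP letters and 13.7% the EBF letters. A match describes letters in a window and says nothing about binding.

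Cells were placed in classes by marker genes, none of which is one of the 6 members. The matrices held 53990642 to 100777353 UMIs per pool. After filters and doublet removal, 83906 cells remained, with a median per pool between 2666 and 14687.5 unique molecular identifiers (UMIs, each standing for a captured transcript). Of these, 41853 were on the mesenchymal side, 15924 on the leukocyte side, 20476 were shallow stromal droplets under 5000 UMIs that were given no class and 5653 fitted neither side. The mesenchymal classes follow the names of the study: late mesenchymal progenitor (LMP)-like, marrow adipogenic lineage progenitor (MALP)-like, osteoblast progenitor (OBP)-like, osteoblast (OB1- and OB2-like) and osteocyte (Ocy)-like cells. The mesenchymal progenitor cells of the study have no class here. A class was given to 29963 of the 41853 mesenchymal-side cells, so the classes are not the whole stroma. OB2-like cells were gated on *Bsg*, *Ndrg1*, *Ero1l*, *Mt1*, *Mt2* and *Slc2a1*, with no bone matrix gene among them. Since cells were gated on marker genes, the levels of these markers describe the classes and are no independent check of them. They were highest in their own class for 7 of 7 LMP, 8 of 8 MALP, 5 of 6 OBP, 5 of 5 OB1, 5 of 6 OB2 and 6 of 6 Ocy markers. On the leukocyte side the same held for 5 of 6 C1q macrophage, 5 of 6 Gpnmb macrophage, 5 of 5 MHC class II myeloid, 7 of 7 granulocyte, 6 of 6 T cell and 3 of 6 monocyte markers, so the monocyte-like class rests on fewer defining genes. A class is a range of a score and not a type, and 9801 cells lay within 0.1 of the limit that separates a class from none. Levels are given as counts per 1000000 UMIs of the class (CPM), which for 3′ tags need no correction for transcript length, as a mean ± SD over the pools with at least 20 cells of that class. CPM levels and the permutation tests on them were scaled by total UMIs alone. The edgeR fits below also used scaling factors between sums (TMM), with a mean log2 of 0.46 in MALP-, 0.23 in LMP- and -0.31 in OB1-like cells, so the 2 scales differ.

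RANKL transcripts came mainly from MALP-like cells, the adipocyte progenitors of marrow stroma marked by *Adipoq* and *Lpl*. *Tnfsf11* stood at 44.0 ± 18.1 CPM there (n = 16 pools), with a lowest pool of 20.3, a median of 40.1 and a highest pool of 75.6 CPM. In LMP-like cells it was 3.94 ± 2.14 CPM, ranging from 1.51 over a median of 3.95 to 9.35 CPM. The lowest MALP-like pool therefore lay above the highest LMP-like pool, and the difference was present in 16 of 16 pools (exact sign-flip permutation test on log2(CPM + 1), adjusted p = 0.000824 over 54 neighbouring class pairs). OB1-like cells had 1.70 ± 1.54 CPM, OBP-like cells 0.892 ± 0.667, OB2-like cells 0.642 ± 0.393 (n = 14) and Ocy-like cells 0.560 ± 1.11, with a median of 0, and 9 and 5 of the 21 UMIs in pools 1 and 2. LMP-like cells exceeded OB1-like cells in 15 of 16 pools (adjusted p = 0.00110, exact permutation test), whereas OB1- and OBP-like cells (adjusted p = 0.138) and OBP- and OB2-like cells (adjusted p = 0.602) did not differ beyond their spread. In the 14 pools with enough OB2-like cells, which leave out pools 1 and 2, OB2-like cells were at 0.642 and Ocy-like cells at 0.175 CPM. OB2-like cells were higher in 11 of 14 pools (adjusted p = 0.00406, exact permutation test), on only 42 UMIs in 3759 cells. Ocy-like cells did not differ beyond their spread from C1q macrophage-like cells at 0.225 CPM (adjusted p = 0.697, exact permutation test over 16 pools). Both levels are thus near the counting floor. MALP-like cells made up 7.21% of all cells and held 51.9% of the 5706 *Tnfsf11* UMIs.

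A *Tnfsf11* UMI was found in 1388 of 6047 MALP-like cells (23.0%, exact 95% interval 21.9 to 24.0) at a median depth of 10607 UMIs. In C1q macrophage-like cells, which should lack the transcript, 5 of 4148 cells had one (0.121%) at a median depth of 4761 UMIs. With every cell thinned to 2000 UMIs, and the 415 shallower C1q macrophage-like cells left out, the shares were 7.08% and 0.0268%. Intervals here cover counting error only.

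The other class with high RANKL was a lymphocyte class. T cell-like cells, which are known to make RANKL when activated, had 52.8, 47.3, 41.7 and 75.3 CPM in pools 5, 6, 8 and 14, with 24, 120, 81 and 152 cells, and no other pool had 20 such cells. These 4 values lie inside the range of the MALP-like pools. *Tnfrsf11b* was at 2.43 CPM over all T cell-like cells, and *Adipoq* was at 58.7 CPM, the highest level among the classes compared other than MALP-like cells (1460 CPM). The part of free RNA or mixed droplets in the T cell-like *Tnfsf11* level was not tested. T cell-like cells held 141 of the 184 *Tnfsf11* UMIs on the leukocyte side.

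**Figure D1:**
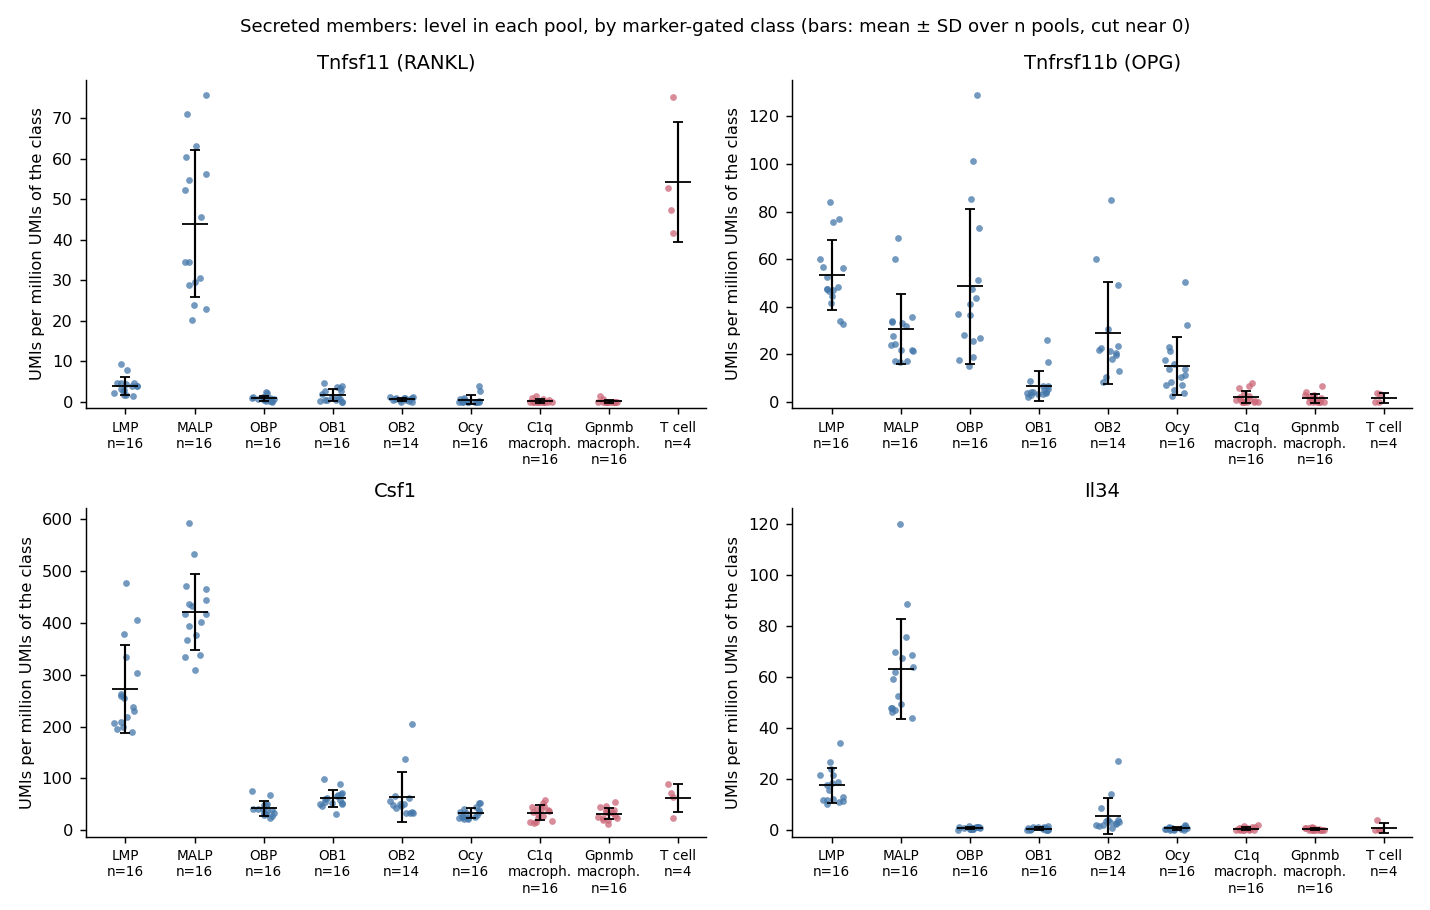
Level of *Tnfsf11*, *Tnfrsf11b*, *Csf1* and *Il34* (CPM) in each pool, by class; each point is a pool with at least 20 cells of the class, blue for mesenchymal and red for leukocyte classes, and bars are mean ± SD over the n pools, cut near 0. *Tnfsf11* and *Il34* are highest in MALP-like cells among mesenchymal classes, with no overlap with LMP-like cells, while *Tnfrsf11b* is spread over LMP-, OBP-, OB2- and MALP-like cells.

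OPG followed another order. *Tnfrsf11b* was at 53.2 ± 14.8 CPM in LMP-like cells (lowest pool 32.8, median 47.9, highest 84.2) and at 48.6 ± 32.6 CPM in OBP-like cells (15.2, 39.0 and 129). LMP- and OBP-like cells overlapped widely and did not differ beyond their spread (adjusted p = 0.302, exact permutation test over 16 pools). MALP-like cells had 30.5 ± 14.7 CPM (16.9, 26.0 and 68.8), below OBP-like cells in 12 of 16 pools (adjusted p = 0.0247). OB2-like cells had 28.8 ± 21.5 CPM, not separable from MALP-like cells (adjusted p = 0.755), followed by Ocy-like cells at 15.3 ± 12.2 and OB1-like cells at 6.63 ± 6.18 CPM. The spread between pools was wide: pool 2 had the highest *Tnfrsf11b* level in MALP-, OBP- and OB1-like cells. In OBP-like cells that pool stood at 129 CPM (556 UMIs, 95% counting interval 118 to 140), against 15.2 CPM in pool 7 (26 UMIs, 9.94 to 22.3). C1q macrophage-like cells had 2.05 ± 2.57 CPM.

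*Csf1* was the most abundant of the 4 signals in every mesenchymal class but OBP-like cells, where *Tnfrsf11b* had the higher mean. It reached 421 ± 73.1 CPM in MALP-like cells (310, 418 and 593) and 273 ± 85.0 CPM in LMP-like cells (189, 247 and 477). These ranges overlapped, yet MALP-like cells were higher in 15 of 16 pools (adjusted p = 0.00110, exact permutation test). OB2-like cells followed at 64.3 ± 48.3 CPM, OB1-like cells at 61.6 ± 16.3, OBP-like cells at 41.9 ± 13.9 and Ocy-like cells at 33.3 ± 10.3. The OB2-like mean was raised by pool 18 at 204 CPM. Its median was 49.8 CPM against 60.2 in OB1-like cells, and OB2-like cells were higher in 6 of 14 pools. LMP-like cells exceeded OB2-like cells in 14 of 14 pools (adjusted p = 0.00110), and of the neighbours from OB2-like cells down to Gpnmb macrophage-like cells at 32.1 ± 11.2 CPM none passed the test. The pairs with MHC class II myeloid-like cells had 6 pools, too few for the adjusted test to pass, and OB1-like cells were above them in 5 of 6 (mean log2 difference 0.53 ± 0.19 SE). One small class stood apart among leukocytes: basophil- or mast-like cells had 441 CPM of *Csf1* (349 UMIs in 157 cells, 95% counting interval 396 to 490), with 268 CPM in pool 6 (35 cells) and 769 CPM in pool 18 (61 cells). No test was made with 2 pools.

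*Il34* also separated MALP-like from LMP-like cells. MALP-like cells had 63.1 ± 19.7 CPM (44.0, 60.6 and 120) and LMP-like cells 17.5 ± 6.75 CPM (10.4, 16.7 and 34.0), with no overlap and the same direction in 16 of 16 pools (adjusted p = 0.000824, exact permutation test). OB2-like cells had 5.68 ± 7.03 CPM, of which pool 18 had 27.0. OBP-, Ocy- and OB1-like cells were at 0.867, 0.743 and 0.615 CPM, levels that leukocyte classes also had (0.633 in C1q macrophage-like cells). Among cells outside the fits, 46 glial-like cells carried 21 *Il34* UMIs (39.6 CPM, 95% counting interval 24.5 to 60.5). Of these cells 26 were in pool 2 (40.3 CPM), the only pool with at least 20, so the value rests mostly on that pool. Pool 7 was highest for *Il34* in both MALP- and LMP-like cells.

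Each class was then compared with the mean of the other 5 in a fit of edgeR over all genes with the pool as a block. Classes differ in most of their genes: 81.6% of the 12121 genes tested passed an adjusted p of 0.05 for MALP-like cells, 77.7% for LMP-, 66.1% for OBP-, 67.7% for OB1-, 68.4% for OB2- and 67.7% for Ocy-like cells, so that a call alone does not set a member apart and its size is what is given here. Of the 6 members, *Tnfrsf11a* did not pass the filter on low counts. In MALP-like cells, log2 fold changes were 4.79 ± 0.15 (SE) for *Tnfsf11* (edgeR, adjusted p = 1.3e-46), 4.46 ± 0.13 for *Il34* (adjusted p = 3.8e-48) and 2.11 ± 0.08 for *Csf1* (adjusted p = 5.0e-39), beside a median of 0.01 over all genes. *Tnfrsf11b* did not pass there (-0.16 ± 0.15, edgeR adjusted p = 0.307), and it turned to 0.40 with adjusted p = 0.00879 when counts were scaled by library size alone, which moved the median of all genes to 0.57. That scaling also moved the calls of MALP-like cells from 5001 higher and 4889 lower to 8910 and 2131, and those of OB1-like cells from 4327 and 3883 to 1689 and 8233. For LMP-like cells it moved them from 4649 higher and 4772 lower to 7351 and 2560, for OB2-like cells from 4178 and 4112 to 2548 and 6281, for Ocy-like cells from 4237 and 3966 to 2574 and 6215, and for OBP-like cells from 4106 and 3912 to 3210 and 4896.

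In LMP-like cells, the progenitors of the adipogenic and osteogenic branches, all 4 secreted members were higher than the mean of the other classes: *Il34* by 2.47 ± 0.14, *Csf1* by 1.59 ± 0.08, *Tnfrsf11b* by 1.26 ± 0.12 and *Tnfsf11* by 0.85 ± 0.19 on the log2 scale (edgeR, largest adjusted p = 6.2e-05). OBP-like cells combined higher *Tnfrsf11b* (1.19 ± 0.13) with lower *Tnfsf11* (-1.32 ± 0.29), *Csf1* (-1.27 ± 0.11) and *Il34* (-2.31 ± 0.27). OB1-like cells, the class with high *Bglap*, had the lowest *Tnfrsf11b* (-2.14 ± 0.19, edgeR adjusted p = 3.9e-17), and their *Tnfsf11* did not pass the test (0.21 ± 0.23, adjusted p = 0.428). It passed as higher when cells had to score 0.5 above the next class (0.78, edgeR adjusted p = 0.0124) and was below 0 in DESeq2 (-0.16), in the second run (-0.036) and with library size scaling (-0.13), so no direction is given for it. OB2-like cells had higher *Tnfrsf11b* (0.56 ± 0.16, edgeR adjusted p = 0.00101), a call that was lost without the pool block (adjusted p = 0.0634). In Ocy-like cells all 4 were lower, from -0.72 ± 0.17 for *Tnfrsf11b* to -2.58 ± 0.34 for *Il34*. Osteocytes in bone are known as a source of RANKL, and the *Tnfsf11* count behind the Ocy-like value was 21 UMIs in 2995 cells.

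**Figure D2:**
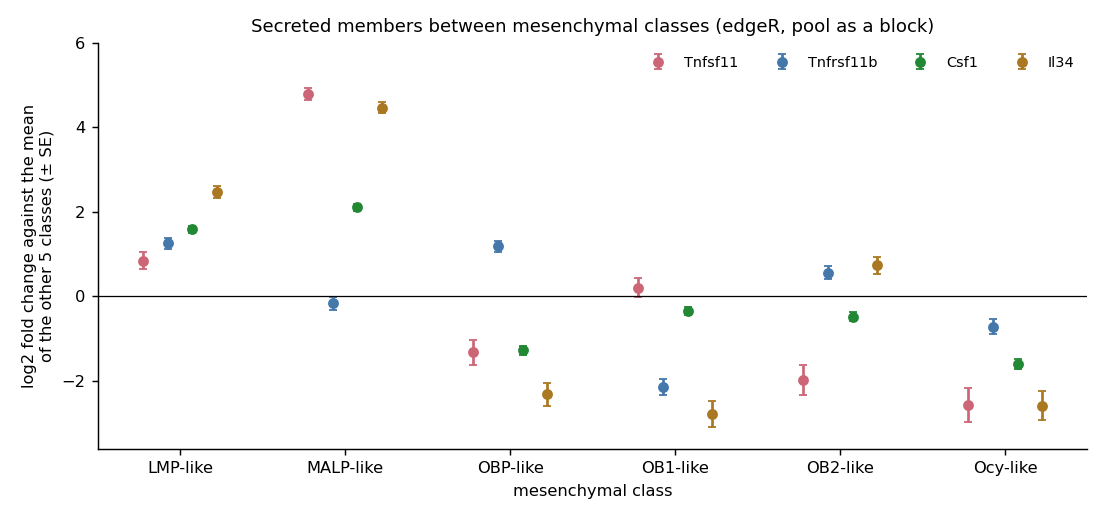
Log2 fold change of the 4 secreted members in each mesenchymal class against the mean of the other 5 classes (edgeR with pool as a block; bars are SE). *Tnfsf11*, *Csf1* and *Il34* are highest in MALP-like cells at 4.79, 2.11 and 4.46, while *Tnfrsf11b* is higher in LMP- and OBP-like cells and lowest in OB1-like cells.

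The balance of *Tnfsf11* to *Tnfrsf11b* UMIs differed by class, and among the mesenchymal classes it was highest in MALP-like cells. MALP-like cells held 2960 *Tnfsf11* and 2405 *Tnfrsf11b* UMIs, and the ratio was above 1 in 13 of 16 pools, with a lowest value of 0.295 in pool 2, a median of 1.60 and a highest value of 3.20 in pool 4. LMP-like cells held 585 and 8658 UMIs, with ratios from 0.0196 over a median of 0.0760 to 0.178. The MALP-like ratio exceeded that of LMP-, OBP-, OB1- and Ocy-like cells in 16 of 16 pools each (exact sign-flip permutation test on log2(ratio + 0.01), adjusted p = 3.8e-05) and that of OB2-like cells in 14 of 14 (adjusted p = 0.00012). Before adjustment, each p was the smallest that the test can give at its number of pools (3.1e-05 for 16 and 0.00012 for 14). In OB1-like cells, where *Tnfrsf11b* was lowest, the median ratio was 0.212 and pool 3 reached 1.03, on 32 and 31 UMIs. Over the whole mesenchymal side the ratio lay between 0.0657 in pool 10 and 0.405 in pool 4, with a median of 0.231.

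**Figure D3:**
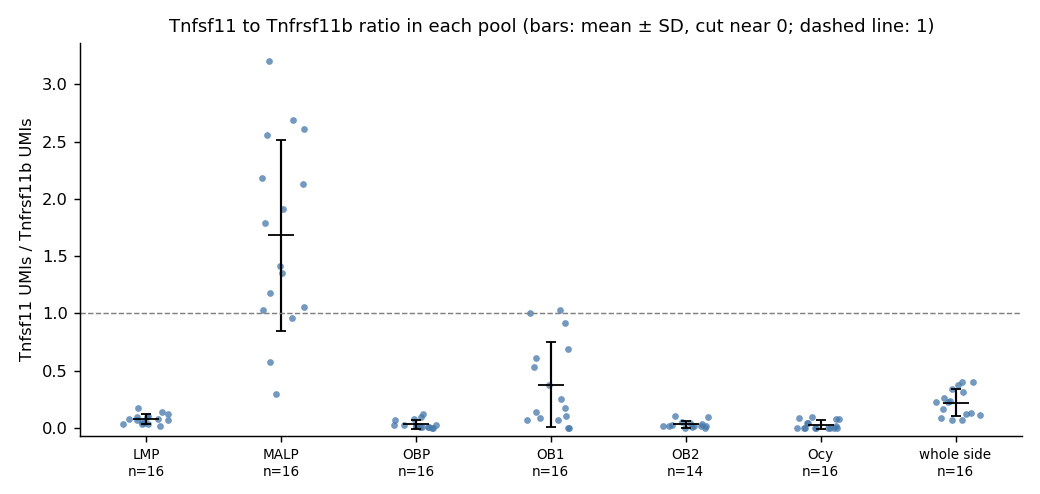
Ratio of *Tnfsf11* to *Tnfrsf11b* UMIs in each pool (points) for the mesenchymal classes and for the whole mesenchymal side, with mean ± SD, cut near 0. MALP-like cells are above the dashed line at 1 in 13 of 16 pools, OB1-like cells in 1 pool, and every LMP-, OBP-, OB2- and Ocy-like pool is below it.

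MALP-like cells with and without a *Tnfsf11* UMI were compared for the other signals, where a cell without a UMI may still hold the transcript. The 1388 cells with a *Tnfsf11* UMI were somewhat deeper than the 4659 without (median 11621.5 and 10357 UMIs). *Csf1* was at 458 ± 72.2 CPM in the former and 406 ± 78.5 in the latter, higher in 13 of 16 pools (mean log2 difference 0.18 ± 0.05 SE, adjusted p = 0.00549 over 3 genes, exact permutation test). *Tnfrsf11b* was at 27.2 ± 15.5 and 31.4 ± 15.8 CPM, lower in 11 of 16 pools (adjusted p = 0.121), and *Il34* at 58.1 ± 16.3 and 64.5 ± 21.5 CPM (adjusted p = 0.121). A *Tnfrsf11b* UMI was found in 18.7% of the cells with *Tnfsf11* and 18.2% of those without. In C1q macrophage-like cells, which are shallower, 1.01% had a *Tnfrsf11b* UMI, and the part of free RNA or mixed droplets in the shared droplets was not tested.

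The receptors were on the other side of the culture. The gate kept droplets with 2 or more leukocyte lineage markers at 0.02% or more of UMIs off the mesenchymal side. Droplets with mesenchymal lineage markers at 0.5% or more of UMIs were kept off the leukocyte side. Between the leukocyte and mesenchymal sides, where 85.3% of 13380 genes passed the edgeR test, *Tnfrsf11a* was higher on the leukocyte side by 7.09 ± 0.14 and *Csf1r* by 6.57 ± 0.10 on the log2 scale. *Tnfrsf11a* failed the low-count filter within the mesenchymal classes, so it entered this comparison through the leukocyte side, where it was high. All 4 signals were lower there, with *Tnfrsf11b* at -4.31 ± 0.19, *Il34* at -3.62 ± 0.20, *Tnfsf11* at -2.41 ± 0.50 and *Csf1* at -2.12 ± 0.16 (edgeR, largest adjusted p = 0.000184). Of these, *Tnfrsf11b*, *Il34* and *Tnfsf11* failed the low-count filter within the myeloid classes. They entered the comparison of sides through the mesenchymal side, so their direction was fixed in advance and is no finding. The median over all genes was -0.12. In the shallow stromal droplets, *Csf1r* was at 45.0 CPM and *Tnfrsf11a* at 6.86 CPM, against 3.88 and 0.307 CPM on the mesenchymal side. Cells that fitted neither side had *Csf1r* at 54.8 CPM and *Tnfrsf11a* at 6.70 CPM. The part of the gate, of free RNA or of mixed droplets in these values and in the differences between sides was not tested.

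RANK was highest in osteoclast-like cells, defined as leukocyte-side cells with at least 3 of *Acp5*, *Mmp9*, *Ocstamp*, *Dcstamp*, *Calcr* and *Oscar*. These were 174 cells, and 2 pools held at least 20 of them: *Tnfrsf11a* was at 192 CPM in pool 1 (77 cells) and 171 CPM in pool 2 (31 cells). Over the 9 pools with at least 5 such cells it was 143 ± 52.5 CPM, from 54.0 in pool 6 (3 UMIs in 6 cells) to the value of pool 1. C1q macrophage-like cells had 62.3 ± 17.1 CPM (26.1, 62.4 and 93.9), MHC class II myeloid-like cells 45.2 ± 11.8 (n = 6) and Gpnmb macrophage-like cells 40.6 ± 12.0 CPM. Osteoclast-like cells were above the C1q macrophage-like cells of the same pool in 8 of 9 pools. C1q macrophage-like cells were above MHC class II myeloid-like cells in 5 of 6 shared pools, and these above Gpnmb macrophage-like cells in 4 of 6. With 6 pools the exact test cannot pass after adjustment, since its smallest p is 0.03125 and became 0.0938 over the 54 pairs, so these neighbours cannot be told apart or alike here. Granulocyte-like cells were at 0.866 ± 1.23 CPM. Monocyte-like cells had 10.5 ± 7.71 CPM (n = 4). A *Tnfrsf11a* UMI was found in 122 of 174 osteoclast-like cells (70.1%, exact 95% interval 62.7 to 76.8) at a median of 11009 UMIs, and in 20 of 6047 MALP-like cells (0.331%) at 10607 UMIs.

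*Csf1r* (ENSMUSG00000024621, chromosome 18 from 61100598 to 61132149, plus strand) did not share that order. It was at 746 ± 97.7 CPM in C1q macrophage-like cells (600, 738 and 946), at 390 ± 99.6 in MHC class II myeloid-like cells (n = 6), at 250 ± 48.0 in Gpnmb macrophage-like cells and at 185 ± 96.1 in monocyte-like cells (n = 4). Osteoclast-like cells had 630 ± 125 CPM over 9 pools (390 to 783) and lay below the C1q macrophage-like cells of the same pool in 8 of 9. C1q macrophage-like cells were above MHC class II myeloid-like cells in 6 of 6 shared pools and these above Gpnmb macrophage-like cells in 6 of 6, each at the smallest p that 6 pools allow (0.03125), which did not pass after adjustment (0.0938, exact permutation test). Granulocyte-like cells had 21.0 ± 13.4 CPM. All 6 mesenchymal classes lay between 3.12 and 4.54 CPM, and the macrophage gene *C1qc* between 6.45 and 7.78 CPM in the same classes. In the mesenchymal fit *Csf1r* passed as lower in MALP-like cells (-0.49 ± 0.12, edgeR adjusted p = 0.000141), which turned to 0.071 with library size scaling, and as higher in OBP-like cells (0.37 ± 0.11, adjusted p = 0.00206), which was lost with doublets kept (adjusted p = 0.0763).

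**Figure D4:**
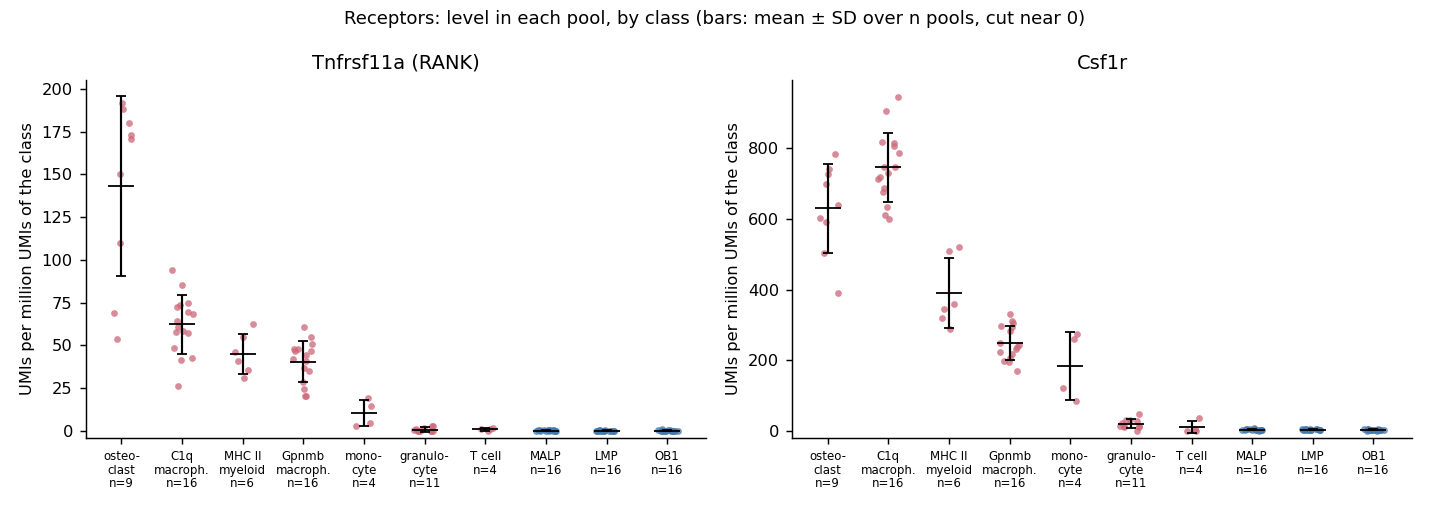
Level of *Tnfrsf11a* and *Csf1r* (CPM) in each pool, by class, with mean ± SD, cut near 0; osteoclast-like points are pools with at least 5 cells, all others at least 20. *Tnfrsf11a* is highest in osteoclast-like cells, *Csf1r* is highest in C1q macrophage-like cells, and both are near 0 in the mesenchymal classes.

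Within the myeloid fit, 56% of 9064 genes passed for C1q macrophage-, 67.6% for Gpnmb macrophage-, 34.9% for MHC class II myeloid- and 71.9% for granulocyte-like cells, and 3 members passed the filter on low counts. C1q macrophage-like cells had higher *Csf1r* (2.40 ± 0.09) and *Tnfrsf11a* (2.15 ± 0.14), and MHC class II myeloid-like cells had both higher as well (1.28 ± 0.12 and 1.81 ± 0.19), relative to the mean of the other classes (edgeR, largest adjusted p = 1.5e-10). Gpnmb macrophage-like cells had higher *Tnfrsf11a* (1.07 ± 0.17, edgeR adjusted p = 2.9e-07) but no call for *Csf1r* (0.03 ± 0.09, adjusted p = 0.791). Granulocyte-like cells were lower in both by more than any other class differed, at -5.04 ± 0.30 for *Tnfrsf11a* and -3.71 ± 0.15 for *Csf1r*, and they are part of the mean that each other class is set against. Their *Tnfrsf11a* value rests on 6 UMIs in 1398 cells. The gene reached the low-count filter through the other classes, so its direction in granulocyte-like cells is no finding. By level, Gpnmb macrophage-like cells had the lowest *Tnfrsf11a* of the 3 macrophage and MHC class II classes, so their positive value holds against a mean that includes granulocyte-like cells. *Csf1* passed as lower in Gpnmb macrophage-like cells (-0.38 ± 0.15, adjusted p = 0.0202) and turned to 0.053 with library size scaling. In DESeq2 it did not pass there (adjusted p = 0.136). *Csf1* passed as higher in MHC class II myeloid-like cells (0.50 ± 0.19, adjusted p = 0.0350) and did not pass in DESeq2 (adjusted p = 0.0621). Library size scaling moved the calls of C1q macrophage-like cells from 2563 higher and 2510 lower to 3615 and 1517, of Gpnmb macrophage-like cells from 3227 and 2904 to 5468 and 1402, and of granulocyte-like cells from 3035 and 3483 to 1636 and 5735. For osteoclast-like cells, a fit with the 9 pools of at least 5 cells, added after seeing the data, gave 2.75 ± 0.16 for *Tnfrsf11a* (edgeR, adjusted p = 2.0e-20) and 1.42 ± 0.12 for *Csf1r* (adjusted p = 1.5e-14), where 37.2% of 9009 genes passed. That mean also includes granulocyte-like cells, and the *Csf1r* level of osteoclast-like cells was 0.840 times that of C1q macrophage-like cells in the same 9 pools.

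The wider pathway was read from 7 lists of related genes. Of 9 tested receptors and modulators that are known to raise or tune RANKL in stroma, 7 were higher and 2 lower in MALP-like cells (median log2 fold change 0.91), where 41.3% of all genes were higher and 40.3% lower. The largest were *Il1r1*, the interleukin-1 receptor, at 2.47 ± 0.10, and *Pth1r*, the parathyroid hormone receptor, at -2.43 ± 0.09, followed by *Vdr*, the vitamin D receptor, at -1.24 ± 0.12. In OB1-like cells 3 of these 9 were higher and 2 lower (median -0.19), against 35.7% and 32% of all genes. *Vdr* (1.61 ± 0.09) and *Pth1r* (0.65 ± 0.07) were among the higher. By level *Pth1r* was at 755 CPM in OB1-like cells, against 894 in OBP-, 807 in OB2- and 927 CPM in Ocy-like cells. The *Tnfsf11* call in OB1-like cells depended on the gate, as given above. Of 10 tested stromal signals to osteoclast lineage cells, 7 were higher and 3 lower in MALP-like cells (all genes as above). The 7 include *Bmp6* (3.26 ± 0.15), which was at 8.71 CPM there and at most 1.01 CPM in the other mesenchymal classes. It could reach the low-count filter through MALP-like cells alone, so its direction is no finding. Of the others, the largest were *Ptgs2* at -3.17 ± 0.11, *Il11* at -2.98 ± 0.25 and the chemokine gene *Ccl7* at 1.40 ± 0.27. In LMP-like cells 8 of the 10 signals were higher and 1 lower (median 1.03), against 38.4% and 39.4% of all genes, led by *Ccl7* at 2.42 ± 0.23. The other receptors of these ligands are LGR4 for RANKL, and PTPRZ1 and syndecan-1 for IL-34. *Ptprz1* was lower in MALP-like (-5.34 ± 0.17) and LMP-like cells (-3.67 ± 0.15) and higher in the other 4 classes, among them Ocy-like (3.74 ± 0.09) and OB1-like cells (2.65 ± 0.10), *Lgr4* was lower in LMP-like (-1.86 ± 0.07) and MALP-like cells (-0.54 ± 0.07) and higher in Ocy-like (1.04 ± 0.07), OB1-like (0.86 ± 0.06) and OB2-like cells (0.41 ± 0.07), and *Sdc1* was higher in MALP-like (1.87 ± 0.09) and LMP-like cells (1.15 ± 0.09) and lower in the other 4 classes, down to -1.36 ± 0.13 in Ocy-like cells.

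On the receiving side, all 5 costimulation genes, which pass the immunoreceptor signal that works with RANK, were higher on the leukocyte side (median 6.29). The largest was *Tyrobp* at 7.64 ± 0.22, and 38.5% of all genes were higher and 46.8% lower. The 5 include *Btk*, which was at 0.139 to 0.266 CPM in the mesenchymal classes and failed the low-count filter of their fit. It entered the comparison of sides through the leukocytes, so its direction was fixed in advance. Of the CSF1R signalling and myeloid transcription factor genes, 9 of 9 were higher on the leukocyte side, led by *Spi1* at 7.65 ± 0.18. The same limit holds for *Tfec* among them, which was at 0.241 to 0.459 CPM in the mesenchymal classes. Of 13 RANK signalling genes, 10 were higher and 2 lower (median 1.46), with *Gab2* at 2.51 ± 0.09 and *Relb* at 2.27 ± 0.09. Within myeloid cells, the osteoclast-like class had 2 of 12 tested RANK signalling genes higher and 4 lower, with 18.2% of all genes higher and 19% lower, so the share that was higher was near that of all genes. The largest was *Nfatc1*, a transcription factor that osteoclast formation requires, at 4.11 ± 0.12 (edgeR, pools with at least 5 cells). Of the 7 effectors outside the gate, *Itgb3* passed the low-count filter only with this class in the fit and is left out of the count. The other 6 were higher in that class, with the collagen-degrading protease gene *Ctsk* at 4.59 ± 0.26 and the proton pump subunit gene *Atp6v0d2* at 3.61 ± 0.23. Of 6 tested effectors, 5 were also higher in Gpnmb macrophage-like cells, where 35.6% of all genes were higher and 32% lower, with *Atp6v0d2* at 3.98 ± 0.19 and *Ctsk* at 2.61 ± 0.19, while *Ostm1*, named after its value was seen, was lower (-0.27 ± 0.12). Of 9 CSF1R signalling genes, 2 were higher and 4 lower in osteoclast-like cells, against the same 18.2% and 19% of all genes, with *Cbl*, a ubiquitin ligase of the receptor, at -1.66 ± 0.14 and *Prdm1* at 1.54 ± 0.22.

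The genes whose pattern was most like each member, by Pearson correlation of log2(CPM + 1) over pools and classes, are given as a description, since the points share libraries and classes. Over 94 sums of the 6 mesenchymal classes, *Tnfsf11* was most like *Cebpa* (r = 0.929), *Ebf1* (0.925) and *Plpp3* (0.924), and *Cebpa* stood at 334 CPM in MALP-like against 26.5 CPM in LMP-like cells. *Csf1* was most like *Tmem86a* (0.942), *M6pr* (0.940) and *Ogn* (0.940), and *Il34* like *Arrdc4* (0.961), 1500009L16Rik (0.960) and *Rbpms* (0.957). For *Tnfrsf11b* the highest values were lower, with *Atxn10* (0.835), 4930503L19Rik (0.818) and *Ruvbl2* (0.818). Over 49 sums of 4 myeloid classes, *Tnfrsf11a* was most like *Mpeg1* (0.960), *Atp1b3* (0.957) and *Ptpro* (0.956), and *Csf1r* like *C1qc* (0.969), which is itself a marker of the C1q macrophage class, *Rgs10* (0.969) and *P2ry6* (0.968).

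Whether pools with more RANKL relative to OPG also held more osteoclast-like cells was asked across the 16 pools. The study holds that its osteoclast-like cells were likely immature, since mature multinucleated ones would exceed the size that can be captured. Mice were pooled after culture and cell isolation, so a pool value averages over separate cultures. Over all cells, 256 of 83906 had at least 3 of the 6 osteoclast markers, of which 117 had exactly 3, and a further 1336 cells had 2. The share per pool ran from 0% in pool 17 (0 of 5038 cells, which allows up to 0.0595% by a limit of 3 counts and up to 0.0732% by the exact 95% interval) over a median of 0.122% to 1.84% in pool 1 (130 of 7055 cells, exact 95% interval 1.54 to 2.18). Pool 2 had 0.544% (33 cells) and pool 13 0.401% (27 cells). Pools 1 and 13 also had the lowest median depths, 2938 and 2666 UMIs per cell. With cells thinned to 2000 UMIs the highest share was 1.29%, again in pool 1. Of the 256 cells, 174 were on the leukocyte side, 47 were shallow stromal droplets, 32 were on neither side and 3 were on the mesenchymal side.

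The log2 ratio of *Tnfsf11* to *Tnfrsf11b* on the mesenchymal side showed no relation to that share that passed the test (r = 0.15, permutation p = 0.664; rho = 0.39, p = 0.134). Pool 1 had a ratio of 0.261 and pool 2, the next highest share, a ratio of 0.0682, near the lowest of all pools. Without pools 2 and 10, which were farthest from the median ratio, r was 0.23 (p = 0.522). The value depended on pool 1 and on the gate: r was 0.04 without pool 1 (p = 0.877), 0.58 when the 2 pools then farthest from the median ratio were left out as well (unadjusted permutation p = 0.0336), 0.41 with 2 or more markers (p = 0.111) and -0.27 with the ratio taken within MALP-like cells (p = 0.274). Of 8 relations computed, *Csf1* against the osteoclast-like share had r = 0.65 (permutation p = 0.00408, adjusted p = 0.0326) with rho = 0.47 (p = 0.0657, adjusted p = 0.150). It rested on pools 1 and 2, which had the highest *Csf1* levels, since without them r was 0.04 (p = 0.894), and without pool 1 alone it was 0.44 (p = 0.0892). *Tnfsf11* (r = 0.57, adjusted p = 0.100; rho = 0.43, adjusted p = 0.150), *Tnfrsf11b* (r = 0.23, adjusted p = 0.524; rho = -0.03, adjusted p = 0.925) and *Il34* (r = 0.09, adjusted p = 0.755; rho = 0.18, adjusted p = 0.586) did not pass against that share. Without the 2 pools farthest from the median level, r was 0.18 for *Tnfsf11* (pools 1 and 9), 0.27 for *Tnfrsf11b* (pools 2 and 6) and 0.43 for *Il34* (pools 6 and 7, p = 0.113). Neither *Csf1* (r = 0.40, adjusted p = 0.204; rho = 0.44) nor *Il34* (r = 0.43, adjusted p = 0.193; rho = 0.49) passed against the share of leukocyte-side cells, and r was 0.35 for *Csf1* without pools 1 and 2 and 0.15 for *Il34* without pools 6 and 7.

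Pool levels of both CSF1R ligands were related by rank. On the mesenchymal side *Csf1* ran from 89.7 CPM in pool 3 to 287 in pool 1 and *Il34* from 5.28 in pool 3 to 31.1 in pool 7, with rho = 0.81 (permutation p = 0.00022, adjusted p = 0.00176) and r = 0.55 (p = 0.0274, adjusted p = 0.100), and r = 0.75 without pools 1 and 2 (p = 0.00728). The share of MALP-like cells among mesenchymal-side cells, from 6.78% in pool 5 to 29.1% in pool 1, moved with both levels. Its r was 0.77 with *Csf1* and 0.75 with *Il34* (adjusted p = 0.00426 for each, over 6 relations added after seeing the data), and 0.53 with *Tnfsf11* (adjusted p = 0.0664). The mesenchymal-side levels include the MALP-like cells, where each of these genes was highest, so a positive relation was largely built in and adds no support. The rho values were 0.79, 0.65 and 0.41, and without the 2 pools farthest from the median share r was 0.71, 0.62 and 0.40. Within MALP-like cells *Csf1* and *Il34* had r = 0.35 (adjusted p = 0.280; rho = 0.20) and within LMP-like cells r = 0.10 (adjusted p = 0.710; rho = 0.04). Without the 2 pools farthest from the median *Csf1* level, r was 0.02 and 0.30. *Tnfsf11* and *Tnfrsf11b* within MALP-like cells had r = -0.17 (permutation test, adjusted p = 0.631; rho = 0.15). In a whole pool, more cells of a class and more RNA per cell of it are mixed, and the levels within a class are given for that reason. No batch other than the run is in the labels, and every pool was in both runs.

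**Figure D5:**
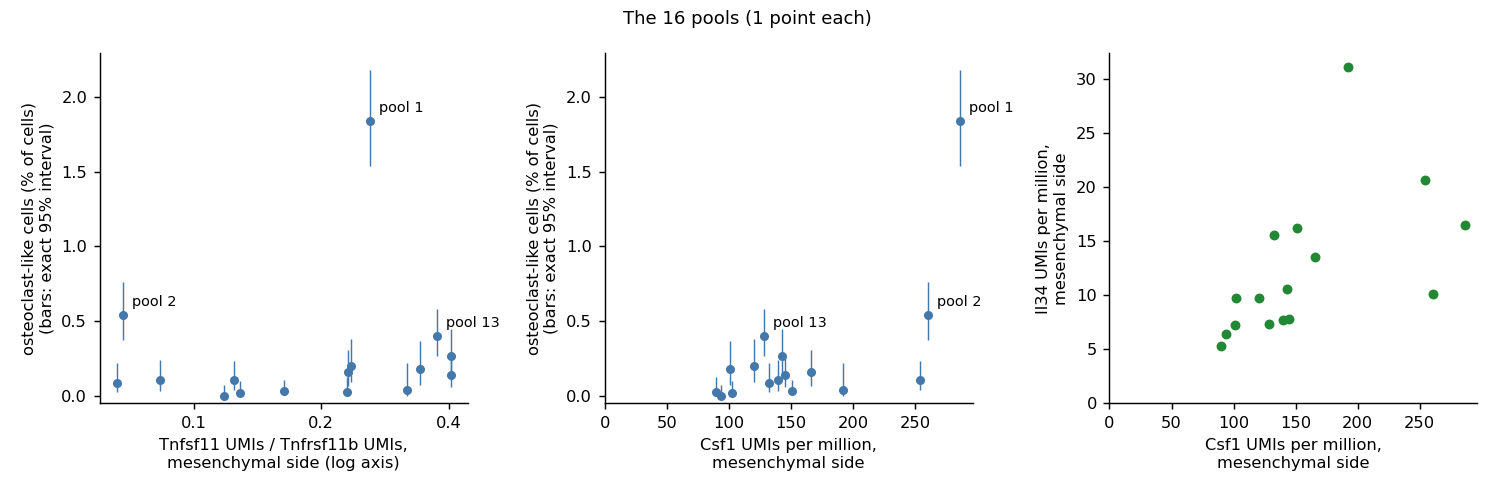
The 16 pools, each a point: share of osteoclast-like cells (percent of cells, with exact 95% intervals) against the *Tnfsf11* to *Tnfrsf11b* ratio (log axis) and against *Csf1* (CPM) on the mesenchymal side, and *Il34* against *Csf1*. Pool 1 lies apart at 1.84%, pool 2 has a high share at a ratio of 0.0682, and *Il34* tends to be higher where *Csf1* is higher.

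Of 106313 barcode sequences in the first run, 1521 occurred in more than 1 pool. The second run held 98.2% of the barcodes of the first, so it repeats the same droplets and is not a further replicate. On the mesenchymal side the level of a pool differed between runs by at most 1.18-fold for *Tnfsf11*, 1.07-fold for *Tnfrsf11b*, 1.03-fold for *Csf1*, 1.17-fold for *Il34*, 1.22-fold for *Csf1r* and 1.91-fold for *Tnfrsf11a*, which is near 0 there. These ratios cover repeated sequencing of the same droplets and not the spread between pools.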

How the data were processed

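Single-cell RNA was captured with 10x Genomics 3′ chemistry from 16 pools of BMSC-OBs. The deposited values are raw UMI counts per gene and barcode, which the authors made with Cell Ranger 5.0.0 on mm10, per the labels. The first sequencing run was analysed, with the other as an alternative. Barcodes with 400 to 6200 genes, under 10% mitochondrial, 20% Rpl and 15% Rps counts were kept (88909 of 107853), and 5003 called doublets were removed at an expected rate that grew with the number of cells. Classes were gated on marker scores (a margin of 0.25 and at least 3 markers), with limits set after the marker distributions had been seen. The members, gene lists and markers were chosen with earlier results of these data known.

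Counts were summed per pool and class (at least 20 cells) and tested with the quasi-likelihood test of edgeR 4.0.16 in R 4.3.3 (TMM, low-count filter, pool as a block, Benjamini-Hochberg adjustment over all genes). The block rests on shared libraries and mice, and deviations from the class means had a median correlation of 0.30 within a pool (230 pairs, lowest 0.04) and -0.02 between pools. Class pairs were tested by exact sign flips, and relations over pools with 100000 permutations. A pool is the replicate, so p-values measure the spread between pools of several mice. Osteoclast-like cells reached 20 cells in 2 pools, so the contrast designed for them was replaced by one with at least 5 cells. On simulated data for the LMP, C1q macrophage and side contrasts, edgeR recovered 100%, 95.9% and 94.9% of 200 genes changed by 1 on the log2 scale, among 12121, 9064 and 13380 genes. The simulated counts had the same mean profile in every class apart from these genes, a fixed dispersion and no pool effect. The rates therefore do not cover scaling where most genes differ, which is the case in these contrasts. Named genes were the 6 members, the 3 genes most like each, and in each list the genes with the largest absolute change. DESeq2 1.42.0, its size factors, no filter, library size scaling, doublets kept, a margin of 0.5, at least 50 cells and leaving out pools were the alternatives.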

Additional observations from a re-analysis of the deposited data

Results flagged for a closer look

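In 6 of the 24 combinations of gene and class with 4 to 10 pools, 1 pool stood far from the others. Chance gives such a pool in about 1 of 20 groups of continuous values, a rate that does not hold where the other pools are at or near 0 counts, so the 6 cannot be read against it. *Csf1* in MHC class II myeloid-like cells was 93.7 CPM in pool 6 (261 UMIs in 357 cells), against 50.5 CPM in the next pool. *Csf1* in osteoclast-like cells was 178 CPM in pool 4, on 18 UMIs in 7 cells, against 56.0 CPM in the next. *Csf1r* in T cell-like cells was 36.0 CPM in pool 8 (19 UMIs in 81 cells), against 5.28 CPM in the next. The other 3 rested on 3 UMIs or fewer. *Tnfsf11* in osteoclast-like cells was 9.87 CPM in pool 4 on 1 UMI, *Il34* in monocyte-like cells was 10.8 CPM in pool 9 on 3 UMIs, and *Il34* in T cell-like cells was 3.83 CPM in pool 6 on 3 UMIs. The causes were not tested.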

How the results depend on the processing

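Of 48 tested member contrasts, 34 kept their direction and side of the threshold in every alternative run, and the number of genes called per contrast stayed between 0.879 and 1.29 times the reported one. Without the pool block, the only member call to change was that of *Tnfrsf11b* in OB2-like cells (0.44, adjusted p = 0.0634). Library size scaling, added after seeing the data, turned *Tnfrsf11b* in MALP-like cells to 0.40, *Csf1r* to 0.15 in LMP-, 0.071 in MALP- and -0.11 in OB1-like cells, *Tnfsf11* in OB1-like cells to -0.13, and *Csf1* to 0.14 in C1q and 0.053 in Gpnmb macrophage-like cells. The second run turned *Csf1r* to 0.020 in LMP- and -0.010 in OB1-like cells, *Tnfsf11* to -0.036 in OB1-like cells and *Csf1* to 0.015 in C1q macrophage-like cells. DESeq2 gave -0.16 for *Tnfsf11* in OB1-like and 0.062 for *Csf1* in C1q macrophage-like cells, where its size factors gave 0.021 and no filter 0.019. *Csf1r* became 0.11 in Ocy-like cells with doublets kept and -0.15 in Gpnmb macrophage-like cells at a margin of 0.5, and *Csf1* became 0.12 in C1q macrophage- and 0.15 in granulocyte-like cells with at least 50 cells. At a margin of 0.5 *Tnfsf11* passed in OB1-like cells (0.78, adjusted p = 0.0124). The ratio against the osteoclast-like share had r = 0.15 as reported, -0.27 (p = 0.274) when taken within MALP-like cells, 0.41 (p = 0.111) with 2 or more markers and 0.04 (p = 0.877) without pool 1, *Csf1* against that share had r = 0.44 without pool 1, and the mean share of 0.258% became 1.69% with 2 or more markers and 1.05% of leukocyte-side cells. The causes were not tested. MHC class II myeloid-like cells gave no value with at least 50 cells, and the contrast of sides was not run at a margin of 0.5 or with at least 50 cells.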
